A study of Mus musculus with 7 samples.

Results

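Interleukin-6 (IL-6), leukemia inhibitory factor (LIF) and the transcription factor STAT3 were followed through 10 genes of their signaling axis, chosen by name as gp130 cytokines, receptors and STAT3 feedback genes. The choice was made with earlier results of these data known. The 10 genes were Il6, Lif and Clcf1 (ligands), Il6ra, Il6st, Lifr and Osmr (receptors), Stat3 (the transcription factor), and Socs1 and Socs3 (feedback inhibitors). All 10 were found among the 32285 genes of the deposited count data, and all 10 were among the 17155 genes that passed the filter on low counts. Utricles, balance organs of the inner ear, were taken from wild-type C57BL/6J mice at postnatal day 2 (P2), cultured as whole explants, and damaged with 2 mM gentamicin, an aminoglycoside that kills hair cells, for 24 h. In the Gent+Fos OE group (4 libraries), explants also received AAV-PHP.eB Fos for 48 h, a viral vector in which a CMV promoter, active in many cell types, drives mouse Fos. The Gent group (3 libraries) is labelled with gentamicin only, and whether its explants received a control virus is not settled by the sources used here. Both groups thus carried the gentamicin injury, no uninjured library was compared, and RNA of pooled utricles was sequenced at day 5 after injury. The study's methods give 12 utricles per group, which may mean 12 per library. The comparison asked which genes differed in level when Fos was overexpressed in injured utricles.

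IL-6 family cytokines signal through the shared receptor chain gp130, which Il6st encodes. IL-6 binds its own receptor chain (Il6ra) before gp130 is engaged, whereas LIF and oncostatin M use gp130 together with the chains encoded by Lifr or Osmr. Janus kinases bound to these chains phosphorylate STAT3, which enters the nucleus and induces, among others, Socs3, whose product blocks gp130 and so closes a feedback loop, and Socs1 restrains cytokine and interferon receptors in a related way. In injured tissue, macrophages, epithelial cells and fibroblasts can all make IL-6 and LIF.

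Library totals ran from 27879889 to 34335214 counted reads (median 31313523). Fos, the overexpressed gene, was at 151, 151, 167 and 149 CPM (reads of a gene per 1000000 normalized reads of its library) in Gent+Fos OE replicates 1 to 4, against 39.5, 40.6 and 34.6 CPM in the 3 Gent libraries (log2 fold change 2.01, SE 0.13, Benjamini-Hochberg adjusted p = 0.000142 in edgeR's quasi-likelihood test), in the direction of the labels. Reads of the virus-borne and the native Fos cannot be told apart in these counts. The 10 hair cell markers summed to 692-883 CPM in Gent+Fos OE and 611-761 CPM in Gent, and the 10 supporting cell markers to 1870-2070 and 1670-2220 CPM, so both cell types of the labelled tissue were represented. Gent replicate 2 stood apart: its counts differed from those of the other Gent libraries by a chi-square per degree of freedom of 139 and 97.9, against 16.8 to 45.9 for the other pairs within a group, and its log CPM, relative to the other libraries, fell with the length of the gene (Spearman's rho -0.50 across genes, against -0.22 to 0.33 in the other libraries). Because the receptor genes and Stat3 have long transcripts, values without this library and with the length trend removed are given where they matter. In bulk tissue, fewer cells of a type and less RNA per cell cannot be told apart.

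The promoter stretches of Il6, Socs1 and Lif are shown because Il6 and Socs1 were the pair of genes that separated between the groups, while Lif, another ligand, did not. Each stretch holds up to 250 bases before the RefSeq start of the gene on GRCm38.p6, without bases that lie inside the gene as annotated in the count data. Capitals mark letters of 5 searched motifs, read on both strands: AP-1 (TGANTCA, bound by Fos and Jun proteins), CRE (TGACGTCA), STAT (TTCNNNGAA), NF-kappaB (GGGNNNTTCC) and IRF (GAAANNGAAA).
Il6, chr5:30012864-30013113, plus strand: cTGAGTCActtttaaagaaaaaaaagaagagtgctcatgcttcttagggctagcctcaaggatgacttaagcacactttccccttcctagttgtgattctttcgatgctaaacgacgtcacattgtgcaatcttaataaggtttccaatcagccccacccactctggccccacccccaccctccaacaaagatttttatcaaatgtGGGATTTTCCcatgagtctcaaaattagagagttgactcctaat
Lif, chr11:4257318-4257556, plus strand: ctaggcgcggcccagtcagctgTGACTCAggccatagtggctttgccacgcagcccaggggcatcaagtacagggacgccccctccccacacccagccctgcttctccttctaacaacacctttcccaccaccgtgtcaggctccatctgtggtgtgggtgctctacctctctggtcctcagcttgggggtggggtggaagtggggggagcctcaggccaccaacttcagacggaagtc
Socs1, chr16:10785537-10785786, minus strand: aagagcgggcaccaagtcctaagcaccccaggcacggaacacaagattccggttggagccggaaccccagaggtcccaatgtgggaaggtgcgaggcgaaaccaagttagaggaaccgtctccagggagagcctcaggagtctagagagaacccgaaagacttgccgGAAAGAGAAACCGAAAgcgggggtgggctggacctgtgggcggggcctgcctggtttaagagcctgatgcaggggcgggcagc

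The Il6 stretch held an AP-1 match at bases -249 to -243 from the start and an NF-kappaB match at -44 to -35. The Lif stretch held an AP-1 match at -228 to -222. The Socs1 stretch held no AP-1 match, and its capitals are a pair of overlapping IRF matches at -83 to -74 and -77 to -68. Among the other members, the Socs3 window held a STAT match at -154 to -146 but lies inside the gene as the count data annotate it, and the windows of Il6ra, Il6st, Lifr, Osmr and Stat3 held none of the 5 motifs. The Lifr and Osmr windows also lie inside their genes as annotated there. Of all 32851 RefSeq windows of the same length, 6.75% held the AP-1 letters, 1.55% the CRE letters, 7.02% the STAT letters, 4.65% the NF-kappaB letters and 2.98% the IRF letters. Windows were matched for 9 of the 10 members, all but Clcf1. A match describes the letters alone. An AP-1 match thus stood in the promoter of a ligand gene that was lower in every Gent+Fos OE library and in that of a ligand gene whose groups overlapped.

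Across the axis, Il6 and Socs1 were the members with lower values in every Gent+Fos OE library than in any Gent library, whereas Lif, Clcf1, the 4 receptor genes, Stat3 and Socs3 overlapped between the groups. Il6 was 2.25-fold and Socs1 1.83-fold lower in the fitted means, and neither passed the adjusted threshold of edgeR's test. No member was called at an adjusted p under 0.01 with an absolute log2 fold change over 0.25, in a table where 0.134% of the 17155 genes were called higher and 0.28% lower. At an adjusted p under 0.05 the count of members was again 0, against 0.665% of all genes higher and 1.19% lower. At an unadjusted p under 0.05, 0 members were higher (11.1% of all genes) and 2 were lower (13.4% of all genes). Complete separation of the groups was found for 2 members in the lower direction, where 12.2% of all genes tested showed it, and for 0 members in the higher direction, where 11.3% did. DESeq2, run as an alternative, called Il6 lower and no other member, with 2.14% of its 15678 genes called lower and 1.75% called higher. The median log2 fold change of the 10 members was 0.0925, beside -0.0007 over all genes tested.

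**Figure D1:**
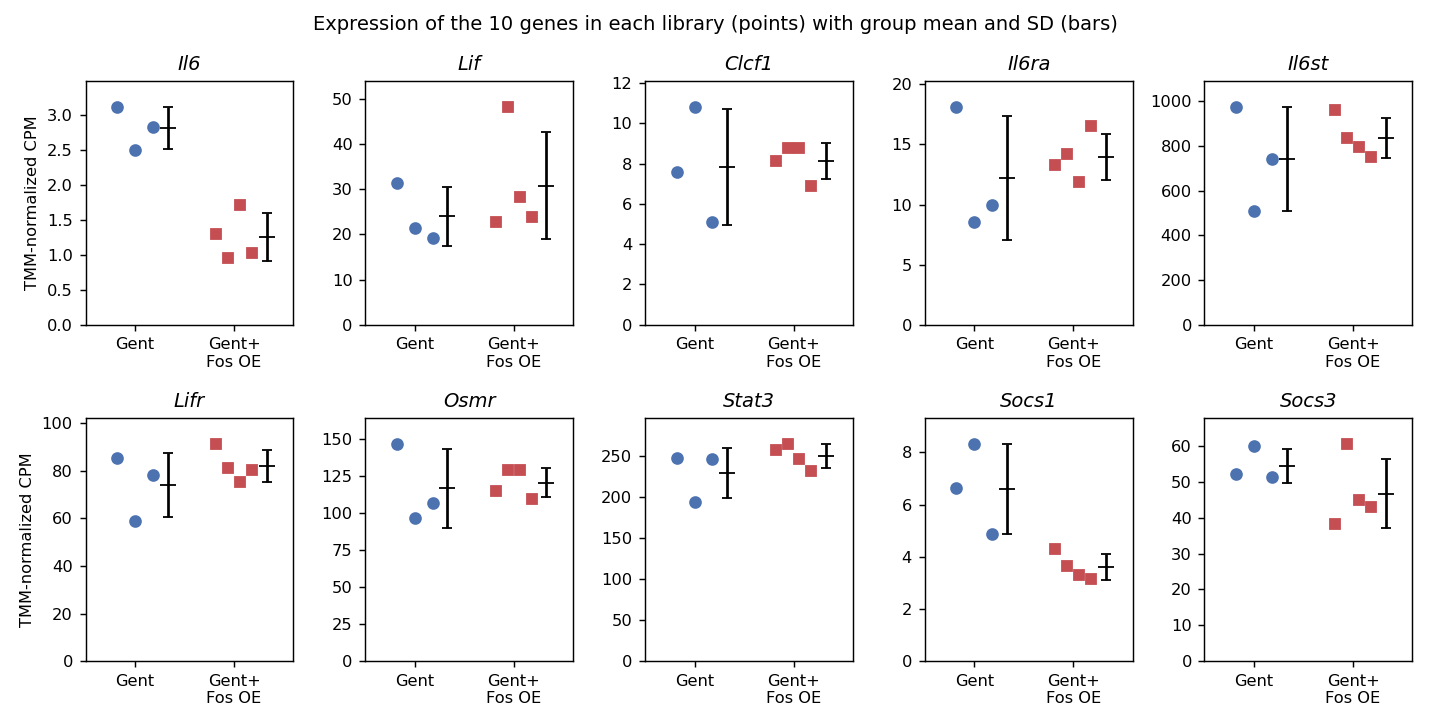
Expression of the 10 genes in each library, in TMM-normalized CPM on axes that start at 0. Circles are the 3 Gent libraries and squares the 4 Gent+Fos OE libraries, in replicate order, and bars give the group mean and SD. Il6 and Socs1 have no overlap between the groups, and Gent replicate 2 is the lowest of all 7 libraries for Il6ra, Il6st, Lifr, Osmr and Stat3.

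Among the ligands, Il6 (ENSMUSG00000025746, chr5:30013114-30019981 on mm10, plus strand) encodes the cytokine that gives the axis its name. Its level was 1.30, 0.949, 1.71 and 1.03 CPM in Gent+Fos OE replicates 1 to 4 and 3.11, 2.50 and 2.83 CPM in Gent replicates 1 to 3. The highest Gent+Fos OE library, replicate 3, lay below the lowest Gent library, replicate 2. Its log2 fold change was -1.17 (SE 0.30, 95% interval -1.83 to -0.51), with a Benjamini-Hochberg adjusted p of 0.0758 in edgeR's quasi-likelihood test and of 0.00828 in DESeq2. The 2-sided exact permutation test gave p = 0.0286, the smallest value that the 35 splits of 4 and 3 libraries allow. The gene was measured with few reads: 154 in all over the 4 Gent+Fos OE libraries (95% exact Poisson interval 130.6-180.3) and 267 over the 3 Gent libraries (235.9-301.0). These intervals address counting error only. They are too narrow even for that, because the mates of a pair were counted separately and the reads are not independent. Leaving out each library in turn kept the log2 fold change between -1.36 and -1.06.

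Lif (ENSMUSG00000034394, chr11:4257557-4272514, plus strand) encodes leukemia inhibitory factor, which keeps mouse stem cells undifferentiated in culture and is released after tissue injury. It was at 22.8, 48.2, 28.2 and 23.8 CPM in Gent+Fos OE and at 31.5, 21.5 and 19.1 CPM in Gent. Gent+Fos OE replicate 2 was the highest of the 7 libraries, and the other 3 Gent+Fos OE libraries lay within the range of Gent. The log2 fold change of Lif was 0.36 (SE 0.27, 95% interval -0.24 to 0.96, adjusted p = 0.42 in edgeR's test), and it ran from 0.05 without Gent+Fos OE replicate 2 to 0.60 without Gent replicate 1. Lif and Il6 therefore stood in different proportions: scaled by exonic length, Lif was 9.77, 28.4, 9.22 and 12.8 times Il6 in Gent+Fos OE and 5.65, 4.81 and 3.76 times Il6 in Gent. All 4 ratios in Gent+Fos OE were above the 3 in Gent, a description without a test.

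Clcf1 (ENSMUSG00000040663, chr19:4214238-4223490, plus strand) encodes cardiotrophin-like cytokine factor 1, which acts on the ciliary neurotrophic factor receptor. Its values were 8.14, 8.76, 8.77 and 6.88 CPM in Gent+Fos OE and 7.60, 10.8 and 5.08 CPM in Gent. The Gent libraries held both the highest and the lowest value. The log2 fold change was 0.06 (SE 0.24, 95% interval -0.47 to 0.59, adjusted p = 0.90 in edgeR's test), with estimates of -0.17 when Gent replicate 3 was left out and 0.36 when Gent replicate 2 was.

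Of the receptor genes, Il6st (ENSMUSG00000021756, chr13:112464070-112510086, plus strand), the shared signaling chain, was the member with the highest level. It was at 961, 834, 796 and 751 CPM in Gent+Fos OE and at 974, 509 and 740 CPM in Gent. The Gent libraries spanned the whole range of Gent+Fos OE, with replicate 2 lowest and replicate 1 highest. The log2 fold change of Il6st was 0.17 (SE 0.20, 95% interval -0.26 to 0.61, adjusted p = 0.60 in edgeR's test).

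Il6ra (ENSMUSG00000027947, chr3:89864059-89913196, minus strand), the chain that binds IL-6 itself, was at 13.3, 14.2, 11.9 and 16.5 CPM in Gent+Fos OE and at 18.1, 8.53 and 9.97 CPM in Gent (log2 fold change 0.20, SE 0.25, edgeR adjusted p = 0.64). Lifr (ENSMUSG00000054263, chr15:7090614-7197489, plus strand), the LIF receptor chain, was at 91.2, 80.9, 75.4 and 80.3 CPM in Gent+Fos OE and at 85.1, 58.9 and 78.0 CPM in Gent (0.15, SE 0.15, edgeR adjusted p = 0.55). Osmr (ENSMUSG00000022146, chr15:6813577-6874969, minus strand), the oncostatin M receptor chain, was at 115, 129, 129 and 110 CPM in Gent+Fos OE and at 147, 96.7 and 107 CPM in Gent (0.04, SE 0.16, edgeR adjusted p = 0.88). All 4 receptor genes overlapped between the groups and were lowest in Gent replicate 2. In the annotation used for the counts, 2.8% of the exonic bases of Il6ra are shared with an unnamed gene.

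The 4 receptor fold changes lay above 0 with all libraries, yet they came near or past 0 without Gent replicate 2 or with the length trend removed. Without Gent replicate 2, the log2 fold changes were -0.012 for Il6ra, -0.042 for Il6st, -0.082 for Osmr and 0.0016 for Lifr. Without Gent replicate 1, they moved the other way, to 0.59 for Il6ra (edgeR adjusted p = 0.0635), 0.42 for Il6st, 0.24 for Osmr and 0.26 for Lifr, and Osmr was also below 0 (-0.015) without Gent replicate 3. With the length trend of each library removed, they were 0.02 for Il6ra, -0.095 for Il6st, -0.13 for Lifr and -0.28 for Osmr, and none of these passed the threshold. Il6st, Lifr, Osmr and Il6ra have exonic lengths of 11099, 10776, 12113 and 8642 bases. No direction is therefore given for the receptor genes. With all libraries, the 95% intervals on the log2 scale ran from -0.26 to 0.61 for Il6st and from -0.35 to 0.74 for Il6ra. They ran from -0.18 to 0.47 for Lifr and from -0.30 to 0.39 for Osmr. These intervals do not include the shift with the length trend, so they do not bound the changes.

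**Figure D2:**
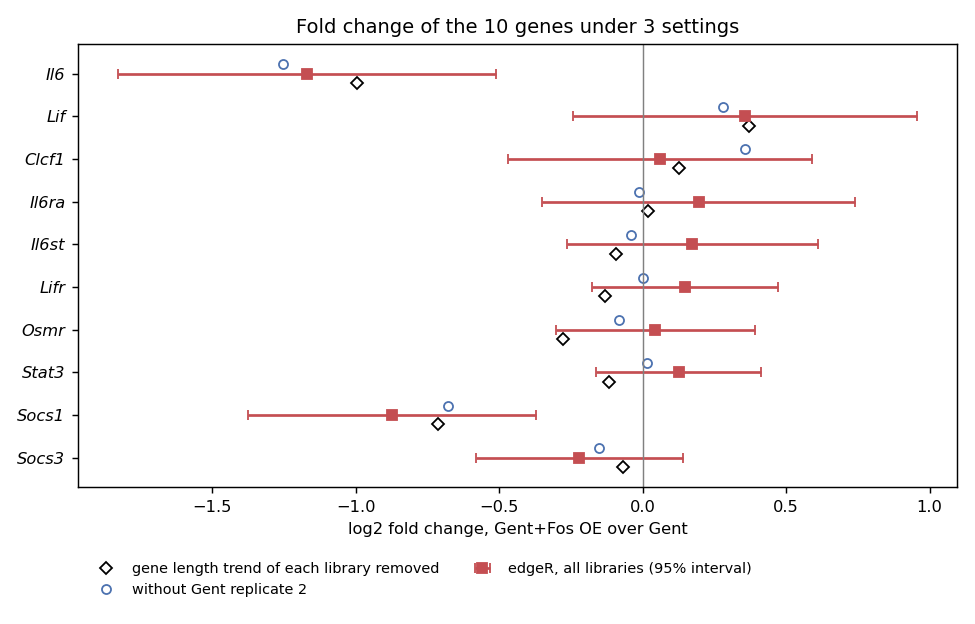
Log2 fold change of each gene, Gent+Fos OE over Gent. Filled squares with bars are edgeR estimates with 95% intervals from all 7 libraries, open circles the estimates without Gent replicate 2, and open diamonds those with the length trend of each library removed. The intervals of Il6 and Socs1 lie below 0 (unadjusted), and the receptor genes and Stat3 move toward or past 0 under the other settings.

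Stat3 (ENSMUSG00000004040, chr11:100885098-100939540, minus strand), the factor on which the receptors converge, was at 258, 265, 246 and 232 CPM in Gent+Fos OE and at 248, 194 and 246 CPM in Gent. Apart from the low Gent replicate 2, the values of both groups fell into the same narrow range. Its log2 fold change was 0.13 (SE 0.13, 95% interval -0.16 to 0.41, adjusted p = 0.57 in edgeR's test), -0.12 with the length trend removed and 0.014 without Gent replicate 2. The counts measure Stat3 transcripts and hold no measure of STAT3 phosphorylation. Of the exonic bases of Stat3, 0.756% overlap the neighbouring gene Stat5a.

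The feedback inhibitor Socs1 (ENSMUSG00000038037, chr16:10782240-10785536, minus strand) was at 4.30, 3.64, 3.32 and 3.17 CPM in Gent+Fos OE and at 6.64, 8.33 and 4.88 CPM in Gent. Every Gent+Fos OE library was below every Gent library, and Gent replicate 3 came closest to the other group. The log2 fold change was -0.87 (SE 0.23, 95% interval -1.38 to -0.37), with an adjusted p of 0.0802 in edgeR's test and 0.0132 in DESeq2, and the exact permutation p was 0.0286, again the smallest possible. Leaving out each library in turn gave -1.05 to -0.68.

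Socs3 (ENSMUSG00000053113, chr11:117966079-117970047, minus strand), the inhibitor most closely tied to gp130, was at 38.1, 60.5, 45.0 and 43.0 CPM in Gent+Fos OE and at 52.0, 59.8 and 51.3 CPM in Gent. In 3 of the 4 Gent+Fos OE libraries it was below all Gent libraries, but Gent+Fos OE replicate 2 was the highest of the 7. The log2 fold change was -0.22 (SE 0.16, 95% interval -0.58 to 0.14, adjusted p = 0.41 in edgeR's test), -0.37 without that library, -0.14 without Gent+Fos OE replicate 1 and -0.069 with the length trend removed. Gent+Fos OE replicate 2 was thus the library with the highest values of Lif, Stat3 and Socs3 and with the lowest value of Il6.

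Compared per kilobase of exonic length, the members spanned a wide range of levels. In Gent, Il6st was highest with a mean of 66.8 CPM per kb, followed by Stat3 (24.1), Socs3 (18.8), Osmr (9.66), Lifr (6.87), Lif (5.53), Socs1 (2.28), Clcf1 (2.05), Il6ra (1.41) and Il6 (1.16). The library ranges of neighbours in this order met for 5 of the 9 neighbouring pairs, namely Stat3 with Socs3, Lifr with Lif, Socs1 with Clcf1, Clcf1 with Il6ra, and Il6ra with Il6. In Gent+Fos OE, Il6st (75.3 CPM per kb) and Il6 (0.514) were again at the ends of the order, and Socs1 (1.24) stood at rank 9, after Clcf1 (2.14) and Il6ra (1.62). The chain that binds IL-6 was thus far less abundant than the shared chain: the length-scaled ratio of Il6ra to Il6st was 0.022 ± 0.0047 (SD, n = 4) in Gent+Fos OE and 0.021 ± 0.0033 (SD, n = 3) in Gent.

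**Figure D3:**
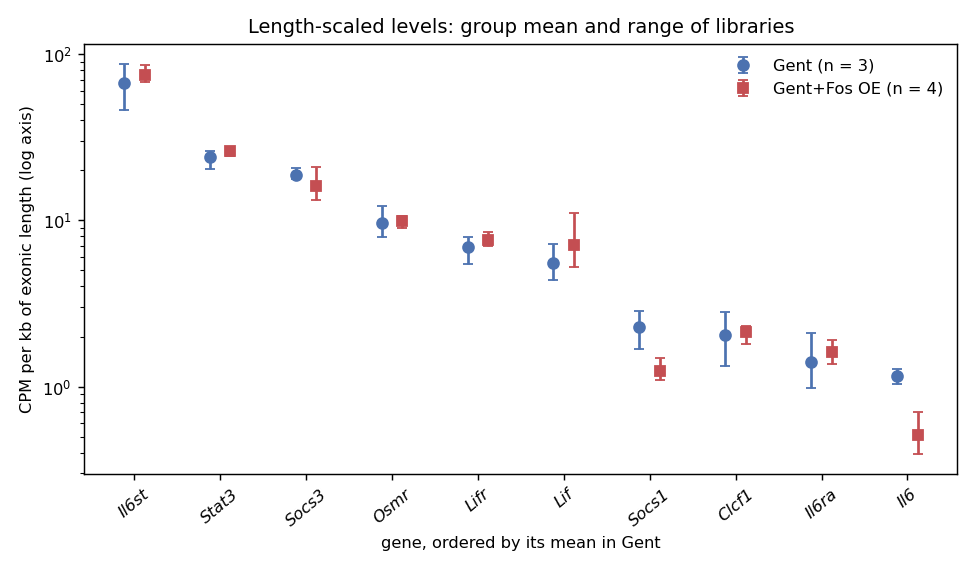
Length-scaled levels of the 10 genes in CPM per kb of exonic length on a log axis, ordered by the mean in Gent. Points are group means and bars run from the lowest to the highest library. Il6st is at the top in both groups, and for Il6 and Socs1 the ranges of the groups do not meet.

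Beyond the 10 members, 79 other genes of the pathway were listed in 9 groups, of which 78 were tested and Il31 was at 0 in every library. The lists were chosen with earlier results of these data known, so the shares over all genes beside them are a description and no test. Of these 78, 0 rose and 8 fell at an adjusted p under 0.05 in edgeR's test, and 2 of the 8, Il1b and Saa3, were called at an adjusted p under 0.01. Over all genes tested, the shares were 0.665% higher and 1.19% lower at an adjusted p under 0.05, and 0.134% and 0.28% called. At an unadjusted p under 0.05, 5 of the 78 were higher and 27 lower, beside 11.1% and 13.4% of all genes. Of their log2 fold changes, 24 were above 0 and 54 below, with a median of -0.19. The 8 falls became 2 without Gent+Fos OE replicate 1 or replicate 3, 5 without Gent+Fos OE replicate 4 or Gent replicate 3, and 17 with DESeq2. The 2 called genes became 0 without Gent+Fos OE replicate 1, 3 or 4 or Gent replicate 3, 1 without Gent+Fos OE replicate 2, and 4 without Gent replicate 2. The count of rises became 3 without Gent replicate 1.

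The other gp130 family ligands had the lowest median, -1.11 over 7 tested genes, with 6 below 0, and a median of -0.71 over the 6 genes with at least 10 counts in every library. In this list, Ebi3, the shared chain of interleukin-27 and interleukin-35, was at 6.29, 4.10, 6.43 and 8.34 CPM in Gent+Fos OE against 14, 18.4 and 10.1 CPM in Gent (log2 fold change -1.17, SE 0.26, edgeR adjusted p = 0.0495). Its groups did not overlap, but its adjusted p lay just inside the threshold, which 0 genes of this list passed with RLE normalization or without Gent+Fos OE replicate 1, 2 or 3 or Gent replicate 2. Osm, which encodes the ligand of the Osmr chain and was picked out after its values were seen, was at 1.5, 2.08, 1.27 and 1.71 CPM in Gent+Fos OE and 3.66, 3.88 and 3.09 CPM in Gent (-1.11, SE 0.26, edgeR adjusted p = 0.0607).

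The other gp130 family receptors had a median of -0.40, and 0 of 4 passed the test. Cntfr, the ciliary neurotrophic factor receptor, had a log2 fold change of -0.39 (edgeR adjusted p = 0.18). Il11ra1, the interleukin-11 receptor, which has near-identical copies in the mouse genome and is uncertain for that reason, was at -0.24 (edgeR adjusted p = 0.34). The proteases that release soluble IL-6 receptor and their cofactors had a median of 0.01 over 4 genes, with Adam10 at 0.30 and Rhbdf1 at -0.19. The 4 Janus kinases had a median of -0.03, with Jak3, a kinase of lymphoid and myeloid cells, at -0.35 and Tyk2 at -0.12. None of these 8 genes passed the test.

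The 6 other STAT factors had a median of -0.41, which was -0.13 without Gent+Fos OE replicate 4, -0.084 without Gent replicate 1 and -0.19 with at least 10 counts required in every library. Among them, Stat2, a factor of type I interferon signaling, was at 57.4, 47.6, 43.4 and 43.0 CPM in Gent+Fos OE and at 86.8, 64.6 and 69.4 CPM in Gent (log2 fold change -0.62, SE 0.15, edgeR adjusted p = 0.0656). Its groups did not overlap, and it did not pass the test. The 14 other negative regulators had a median of 0.15 and 0 passed, with Ptpn6, a phosphatase of blood cells, at -0.75 (edgeR adjusted p = 0.0503) and Pias2 at 0.40 (edgeR adjusted p = 0.17).

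Of 9 Il6 inducers (median -0.28), 1 was higher and 5 were lower at an unadjusted p under 0.05 in edgeR's test, beside 11.1% and 13.4% of all genes. At the adjusted limit 3 fell: Il1b, Tnf and Myd88. Il1b, which encodes the inflammatory cytokine interleukin-1 beta, was at 1.89, 1.84, 1.77 and 1.82 CPM in Gent+Fos OE and at 5.07, 7.60 and 6.59 CPM in Gent (log2 fold change -1.81, SE 0.22, edgeR adjusted p = 0.00316). Tnf, which encodes tumor necrosis factor, was at 20.7, 11.2, 15.5 and 21.2 CPM against 38.7, 42.5 and 33.5 CPM (-1.16, SE 0.21, edgeR adjusted p = 0.0241). Myd88, the adaptor of interleukin-1 and Toll-like receptors, was at 27.2, 24.2, 24 and 25.5 CPM against 41.7, 40.8 and 34.6 CPM (-0.63, SE 0.13, edgeR adjusted p = 0.0362). For all 3, every Gent+Fos OE library was below every Gent library. The count of 3 fell to 1 without Gent+Fos OE replicate 1 or replicate 3. Among 6 regulators of Il6 mRNA stability (median -0.06), 0 passed, with Zc3h12a, the RNase Regnase-1 that degrades Il6 mRNA, at -0.55 (edgeR adjusted p = 0.0745) and Rc3h2 at 0.45 (edgeR adjusted p = 0.15).

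Of the 24 STAT3 target genes (median -0.34), 19 had a log2 fold change below 0 and 5 above 0, and 2 fell. At an unadjusted p under 0.05 in edgeR's test, 1 was higher and 12 were lower, beside 11.1% and 13.4% of all genes. Saa3, an acute-phase serum amyloid A gene, was at 108, 49.9, 111 and 122 CPM in Gent+Fos OE and at 447, 506 and 333 CPM in Gent (log2 fold change -2.13, SE 0.27, edgeR adjusted p = 0.00404). Batf, an AP-1 family factor of immune cells, was at 5.34, 2.2, 4.12 and 4.88 CPM against 10.6, 13.4 and 8.58 CPM (-1.39, SE 0.28, edgeR adjusted p = 0.0382). Both were separated between the groups. The count of 2 fell to 1 without Gent+Fos OE replicate 1, 3 or 4 or Gent replicate 3. The listed targets can also be induced by factors other than STAT3, and the part of STAT3 in their values was not tested.

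**Figure D4:**
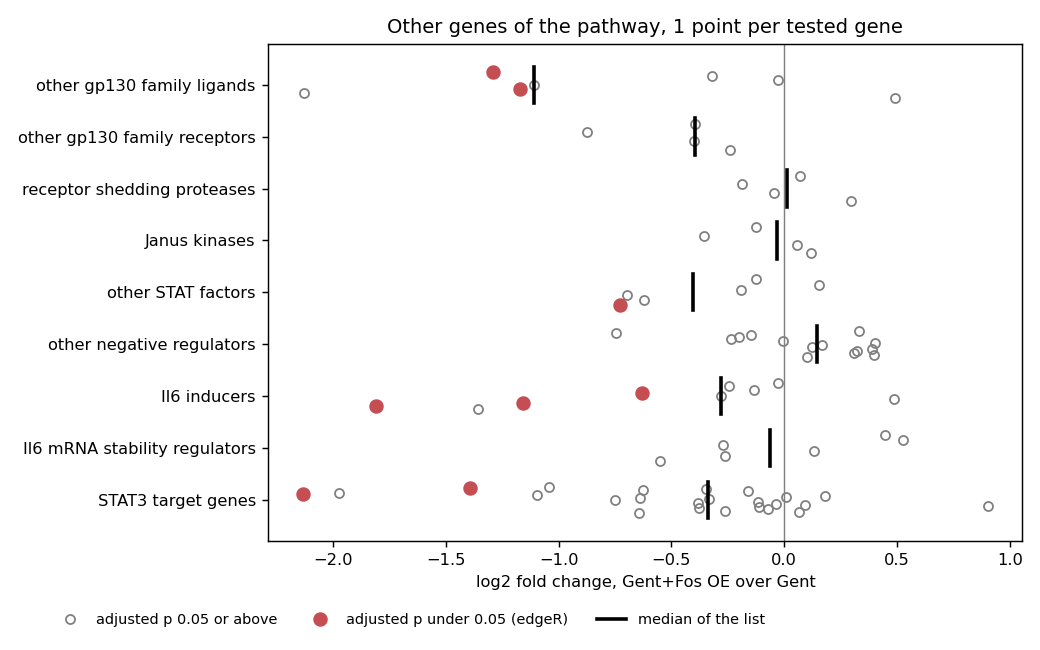
Log2 fold change, Gent+Fos OE over Gent, of the 78 tested genes in 9 pathway lists, with 1 point per gene and a bar at the median of each list. Filled points are the 8 genes with an adjusted p under 0.05 in edgeR's test, and all 8 lie below 0.

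The summed markers of macrophages and melanocytes were lower in every Gent+Fos OE library than in any Gent library, those of neurons were higher, and those of the other cell types overlapped. Of 14 macrophage markers, 12 had a log2 fold change below 0 (median -0.65) and 10 were lower at an unadjusted p under 0.05, beside 13.4% of all genes tested. Only C1qb, a complement gene, passed an adjusted p of 0.05 in edgeR's test (-0.89, adjusted p = 0.0458). The summed level of the 14 was 3170-4920 CPM in Gent+Fos OE and 5200-7230 CPM in Gent, without overlap, and 0 of the 14 were at 0 in every library. Most of this sum was Lyz2, with 1316 exonic bases, at 2040-3080 CPM in Gent+Fos OE and 3190-4760 CPM in Gent. Gent replicate 2 was the highest library for Lyz2 and the lowest for the longer Ptprc, Mrc1 and Cd163, though not for Csf1r. Cd163 was higher in every Gent+Fos OE library than in any Gent library. The gene length trend was not removed from the sum. Of 6 melanocyte markers, all had a log2 fold change below 0, and 5 fell at an adjusted p under 0.05, where 1.19% of all genes tested fell. The summed level of the 6 was 45.7-50.9 CPM in Gent+Fos OE against 87.6-124 CPM in Gent. The summed levels of the other lists overlapped between the groups: 7170-10700 against 8830-12800 CPM for mesenchyme, 131-178 against 141-206 CPM for endothelium, 537-646 against 499-730 CPM for Schwann cells and glia, and 0.429-1.07 against 0.411-0.664 CPM for erythroid cells. Single markers of these lists passed an adjusted p of 0.05 in edgeR's test: endothelial Flt1 rose (log2 fold change 2.04, adjusted p = 0.0281) and glial Pmp22 fell (-0.54, adjusted p = 0.0457). Neuron markers summed to 135-181 CPM in Gent+Fos OE and 111-128 CPM in Gent, without overlap.

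Set beside the macrophage markers, a scaling chosen after the values were seen, Il6 was at 0.312, 0.299, 0.482 and 0.209 CPM per 1000 summed macrophage-marker CPM in Gent+Fos OE and at 0.501, 0.346 and 0.544 in Gent. On this scale the groups overlapped, as they did for Socs1 (0.644-1.15 against 0.938-1.15). The sum used for this scaling is mostly Lyz2, and its gene length trend was not removed. The same division raises every gene in Gent+Fos OE relative to Gent, and it put Il6ra (3.19-4.48 against 1.18-2.91) and Lifr (16.3-25.5 against 8.15-15) above Gent in every Gent+Fos OE library, while the other 6 members overlapped. Il1b (0.370-0.580 against 0.816-1.27), Tnf (3.53-4.96 against 5.88-6.44) and Saa3 (15.7-31.3 against 64-72) stayed below Gent in every Gent+Fos OE library. The other genes that fell, Myd88 among them, were not put on this scale. The part of macrophages, melanocytes and the other cell types in the Il6 and Socs1 values was not tested, and the libraries do not show which cells made the transcripts.

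**Figure D5:**
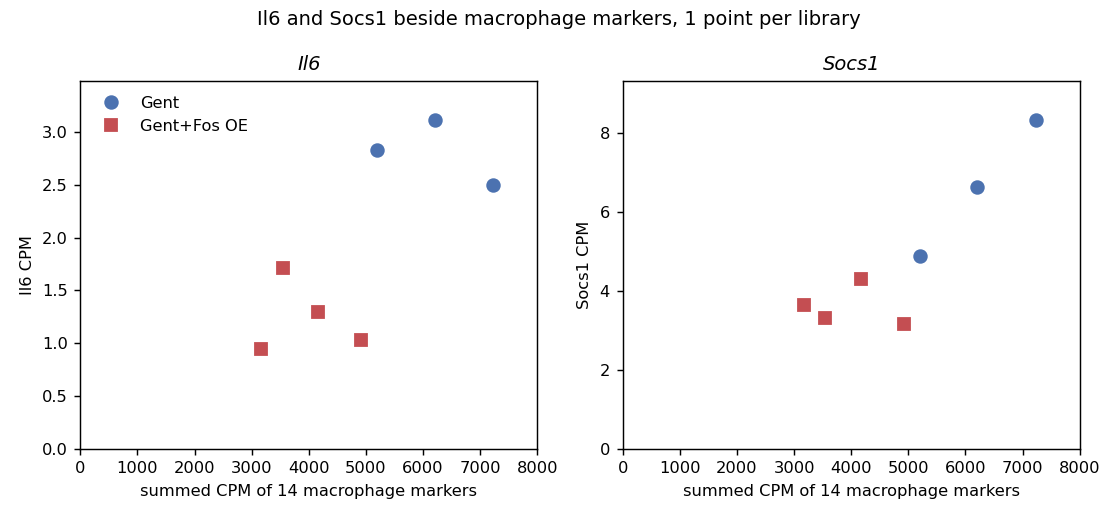
Il6 (left) and Socs1 (right) in CPM against the summed CPM of 14 macrophage markers, with 1 point per library. The 3 Gent libraries (circles) lie at 5200-7230 summed CPM and above the 4 Gent+Fos OE libraries (squares, 3170-4920 summed CPM) for both genes.

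The genes most like 4 of the members across the 7 libraries were ranked by Pearson's r of log2 CPM among the 14837 genes that reached 1 CPM on average. For Il6 they were Nlrp3, an inflammasome sensor of myeloid cells (r = 0.985), Rragc (0.984) and Slc4a10 (0.977), with fitted log2 fold changes of -0.80, -0.19 and -0.95. For Lif they were Pak6 (0.992), Prss22 (0.979) and Ercc4 (0.959). For Socs3 they were AA467197 (0.958), Bid (0.955) and Syt4 (0.951). For Stat3 they were Dnajc5 (0.996), Bcl2l13 (0.994) and Aff3 (0.991), and 1132 genes had an r over 0.9 with it, against 93 for Il6, 23 for Lif and 28 for Socs3. The 7 libraries share group and gene-length differences, and these values are a description. Within the axis, Il6 and Socs1 had an r of 0.77, Il6 and Socs3 of 0.29, Il6 and Lif of -0.44, and Il6st had an r of 0.96 with Lifr, 0.89 with Stat3 and 0.79 with Osmr.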

How the data were processed

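RNA sequencing counts of 7 P2 utricle libraries were used, 4 Gent+Fos OE and 3 Gent, grouped by their labels. The study's methods state 3 replicates per condition, and all 7 libraries were kept. What the authors deposited are raw counts of reads on each gene, made with featureCounts 2.0.6 on an mm10 annotation. Per the file headers, strand was not used, reads with several positions were left out and the mates of a pair were counted separately. The submitters' processing notes also name Trim Galore 0.6.10, HISAT2 2.2.1 and DESeq2 1.34.0, whereas the methods name mm39. Coordinates are those of the count data, on mm10. Symbols were given to 24523 genes by Ensembl ID (GENCODE vM39) where a RefSeq gene of the same symbol overlapped on GRCm38.p6.

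Counts were filtered (filterByExpr, 17155 genes), TMM-normalized and compared with edgeR 4.0.16's quasi-likelihood F-test in R 4.3.3, with Benjamini-Hochberg adjustment over all 17155 genes. A gene was called where the adjusted p was under 0.01 and the log2 fold change beyond 0.25 in either direction, and "rose" or "fell" is used at an adjusted p under 0.05 with the same fold. Single members were compared by a 2-sided exact permutation test of mean log2 CPM. DESeq2 1.42.0 (on genes whose counts summed to 10 or more), RLE normalization, other filters, a length-trend correction (loess, span 0.3), a replicate block and leaving out each library were alternatives. Scripts were tested on simulated data with 200 changed genes. The spread between replicates exceeded read sampling noise, and p-values measure the spread between pools of utricles. At these totals, a level of 1 CPM rests on about 31 reads, so the low genes Il6 and Socs1 carry more counting error than the receptors. SciPy 1.17.1, pandas 2.3.3 and matplotlib 3.10.9 served for the other tests and plots.

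The members and gene lists were chosen with earlier results of these data known. Named genes are the 10 members, Fos, the genes of each pathway list past an adjusted p of 0.05 (or, where there were under 2, those with the smallest p until 2), and the 3 closest genes by correlation for Il6, Lif, Stat3 and Socs3. Results of some of the named genes are left out of the text, although the counts over lists include them.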

Additional observations from a re-analysis of the deposited data

Results flagged for a closer look

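In the group of 4 Gent+Fos OE libraries, 37 sets of values were examined for a library far from the other 3 (Dixon's test), and 2 stood out. Chance gives about 1 in 20 such results. Fos was at 167 CPM in replicate 3, against 149-151 CPM in the others. The summed mesenchyme markers were at 7170 CPM in replicate 2, against 10500-10700 CPM in the others. That replicate was also the one with the highest Lif and Socs3 values (48.2 and 60.5 CPM), which did not themselves pass the test's limit.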

How the results depend on the processing

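Il6 and Socs1 kept a negative log2 fold change in all 14 alternatives. For Il6 it ran from -1.36 to -0.92 (adjusted p 0.00828 to 0.198), and the DESeq2 estimate was -1.16. For Socs1 it ran from -1.05 to -0.64 (adjusted p 0.0132 to 0.218). In DESeq2, 1 member was called lower and 2 passed an adjusted p of 0.05. The signs of Il6st, Lifr, Osmr and Stat3 turned with the length trend removed, and that of Il6ra did not (0.019). With the length trend removed, the log2 fold changes of the former were -0.095 (Il6st), -0.13 (Lifr), -0.28 (Osmr) and -0.12 (Stat3), and with the replicate block added to this correction they were -0.0605 (Il6st), -0.15 (Lifr), -0.25 (Osmr), -0.097 (Stat3) and -0.051 (Il6ra). Leaving out each library gave -0.012 to 0.59 for Il6ra, -0.042 to 0.42 for Il6st, -0.082 to 0.24 for Osmr and -0.17 to 0.36 for Clcf1. Without Gent replicate 1, 2 members were higher at an unadjusted p under 0.05 (0 to 2 over the libraries left out).

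Of the 78 pathway genes, the number called lower was 13 with DESeq2, 5 with no filter, 0 with the replicate block and 0 to 4 with each library left out. The number past an adjusted p of 0.05 was 17 lower and 1 higher with DESeq2, 14 lower with no filter and 0 lower with the block, and ran from 2 to 12 lower and 0 to 3 higher with each library left out. It was 2 without Gent+Fos OE replicate 1 or replicate 3, and 5 without Gent+Fos OE replicate 4 or Gent replicate 3. The count of genes higher at an unadjusted p under 0.05 was 8 with DESeq2, 3 with the length trend removed, 2 with both the block and that correction, and 2 to 10 with each library left out. The causes of these shifts were not tested.

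The replicate numbers did not pair the libraries: the correlations of same-numbered libraries were 0.06, -0.04 and 0.03, and the block called 0 genes of either direction in the whole table. The block changed no call among the members, with Il6 at -1.12 and Socs1 at -0.79. In Gent, ranking the members by CPM without gene length moved 5 of them (Il6ra, Lifr, Osmr, Socs1 and Socs3). With 154 and 267 reads in all, Il6 had the fewest counts of the members.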
